A study of Mus musculus with 7 samples.

Results

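Interferon-stimulated antiviral effector genes were followed in muscularis macrophages, the macrophages that lie between the smooth muscle layers and nerves of the gut wall, after experimental stroke. The genes were chosen by name, with earlier results of these data known. They are 36 antiviral effectors, sensors and feedback genes of the type I interferon response, and all 36 are among the 17209 genes of the deposited table. Cells positive for CX3CR1-GFP were sorted from the peeled muscle layer of the whole small intestine of C57BL6/J mice. Sham surgery gave 4 libraries (Sham 1 to Sham 4) and pMCAO, the operation that the series title calls stroke, gave 3 (pMCAO 1 to pMCAO 3), all at 24 h. Age and sex are not given in the labels used here, and CX3CR1 is also expressed by monocytes and some dendritic cells. The titles call the sham libraries "bio rep" and the pMCAO libraries only "rep". The label of pMCAO 3 names a pool, and no label says how many animals a library holds. Each p-value therefore sets the group difference only against the spread of these samples, which may in part be technical. Counts assigned to listed genes ranged from 18873893 to 34432716 in sham libraries and from 12685941 to 21680302 in pMCAO libraries.

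Type I interferons bind the IFNAR receptor, whose kinases JAK1 and TYK2 phosphorylate STAT2. Together with IRF9, STAT2 is part of ISGF3, a complex that binds the interferon-stimulated response element in the promoters of many genes. Their products sense viral nucleic acid, cut or modify RNA, block translation, trap virions at the membrane or damp the signal again. Resident macrophages hold a low, tonic level of many of these transcripts without infection.

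Promoter sequence is one thing that some of the genes, though not all, share beyond their names. RefSeq promoter windows (GRCm38.p6, 250 bases before to 50 bases after the transcription start) were matched by symbol for 24 of the 36 genes. The search was for the core of the response element, GAAANNGAA, on either strand, with overlapping matches counted. It was found in 14 of the 24 genes (58.3%), against 8.56% of all 32851 windows and 9.10% of the 10548 listed genes with a window. The core of the gamma-activated site, TTCNNNGAA, whose palindromic letters match both strands, was in 6 of the 24 (25%), against 8.30% of all windows. The 6 windows below are from genes whose pMCAO values all lay below the sham values. They are not all such genes with a window: Stat2, with 1 core, and Isg20, with no core, are not shown. Isg15 holds 3 cores that overlap in tandem, Bst2 and Oas1a each hold an overlapping pair, and Ifit3 and Ifit3b hold 3 separate cores each, with the same spacing in both. Oasl1, the gene with the lowest log2 change of the 36, has no match in its window, which says only that these letters are not there. Capitals mark the matches.
Isg15, chr4:156200769-156201068, minus strand: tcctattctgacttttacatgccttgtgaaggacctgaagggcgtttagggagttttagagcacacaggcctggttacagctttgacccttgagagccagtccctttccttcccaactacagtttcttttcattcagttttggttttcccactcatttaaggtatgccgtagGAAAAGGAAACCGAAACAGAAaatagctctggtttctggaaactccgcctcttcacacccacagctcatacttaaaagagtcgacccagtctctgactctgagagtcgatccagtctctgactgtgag
Bst2, chr8:71537423-71537722, minus strand: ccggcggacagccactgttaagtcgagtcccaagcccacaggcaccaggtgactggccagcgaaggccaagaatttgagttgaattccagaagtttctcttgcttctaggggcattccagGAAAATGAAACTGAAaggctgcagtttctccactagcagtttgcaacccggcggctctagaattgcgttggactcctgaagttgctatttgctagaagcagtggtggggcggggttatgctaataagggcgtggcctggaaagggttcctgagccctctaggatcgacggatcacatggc
Oas1a, chr5:120907476-120907775, minus strand: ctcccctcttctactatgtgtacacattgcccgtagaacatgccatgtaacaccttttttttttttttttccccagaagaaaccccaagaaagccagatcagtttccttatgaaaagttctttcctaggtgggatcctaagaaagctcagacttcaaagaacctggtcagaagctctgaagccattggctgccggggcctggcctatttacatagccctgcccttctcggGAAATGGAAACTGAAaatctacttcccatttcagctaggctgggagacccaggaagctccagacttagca
Ifit3, chr19:34583279-34583578, plus strand: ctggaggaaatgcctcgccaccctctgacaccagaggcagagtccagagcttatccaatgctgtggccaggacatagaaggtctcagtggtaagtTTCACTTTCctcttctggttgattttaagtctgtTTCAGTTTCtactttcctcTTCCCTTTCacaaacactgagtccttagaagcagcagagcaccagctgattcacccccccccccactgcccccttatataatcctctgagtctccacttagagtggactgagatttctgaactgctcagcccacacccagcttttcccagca
Ifit3b, chr19:34607707-34608006, plus strand: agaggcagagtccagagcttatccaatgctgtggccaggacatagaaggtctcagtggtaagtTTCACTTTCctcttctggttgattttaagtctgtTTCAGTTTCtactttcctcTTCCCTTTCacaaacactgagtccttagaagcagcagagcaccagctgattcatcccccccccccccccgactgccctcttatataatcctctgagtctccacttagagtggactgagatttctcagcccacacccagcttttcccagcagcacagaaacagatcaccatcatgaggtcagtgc
Oasl1, chr5:114922990-114923289, plus strand: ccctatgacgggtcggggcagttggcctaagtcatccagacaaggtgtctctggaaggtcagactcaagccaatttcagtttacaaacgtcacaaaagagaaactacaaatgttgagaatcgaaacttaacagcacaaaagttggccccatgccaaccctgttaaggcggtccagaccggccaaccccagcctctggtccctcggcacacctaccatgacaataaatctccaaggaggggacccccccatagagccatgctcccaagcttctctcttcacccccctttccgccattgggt

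The genes with and without a core differed little in their change, and no test was made. The median log2 change was -0.65 in the 14 genes with a core and -0.58 in the 10 without. The 12 genes with no window were Dhx58, Ifi204, Ifi27l2a, Mx1, Mx2, Oas2, Parp14, Parp9, Rtp4, Tor3a, Usp18 and Zbp1. Many of the genes are neighbours, and 16 of the 36 lie in 6 clusters with gaps of at most 250 kb. The one with the most members holds Ifit2, Ifit3, Ifit3b and Ifit1 within 99.3 kb of chromosome 19 (34550694 to 34650009, GENCODE M21 coordinates on GRCm38). Chromosome 5 holds Oas2, Oas3 and Oas1a within 177.2 kb and Oasl2 beside Oasl1 within 41.0 kb, and chromosome 16 holds Parp14, Dtx3l and Parp9 within 139.7 kb and the Mx pair.

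After pMCAO most of the transcripts lay at lower levels, but no gene of the 36 passed the test over all genes. Means were lower for 33 of 36 genes, with a median log2 change of -0.60 (quartiles -0.84 and -0.28), against 51.4% of all 17209 genes with a lower mean and a median of -0.02. By the edgeR quasi-likelihood test at an adjusted p of 0.05, 0 of 36 fell and 0 rose, where 0.0291% of all genes fell and 0.0697% rose (0.0988% in either direction). At an unadjusted p of 0.05, 18 of 36 were lower and 0 higher, against 6.47% of all genes lower and 6.97% higher. For 12 of 36 genes every pMCAO value was below every sham value, which held for 6.58% of all genes, and for 0 of 36 the order was the reverse (5.99% of all genes). DESeq2 called 5 of the 36 lower (Bst2, Oasl1, Isg15, Oas1a and Usp18), where it called 1.12% of all genes lower. By limma-voom 1 was lower (Bst2, 0.0639% of all genes lower), and with sample quality weights 4 were (Oas1a, Bst2, Oasl1 and Dhx58), where 1.7% of all genes were. Leaving out single libraries in edgeR, the number of genes lower at an unadjusted p of 0.05 was 12 to 18, and 1 gene (Bst2) passed after adjustment without Sham 1 (adjusted p = 0.0493). The 3 genes with higher means were Ifi204, Ifih1 and Herc6, of which Ifih1 (-0.01) and Herc6 (-0.10) were lower without scaling factors, a setting that shifted the median of all genes to -0.14. The levels of the 36 genes are plotted for every library and their changes in a plot of log2 change by role.

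**Figure D1:**
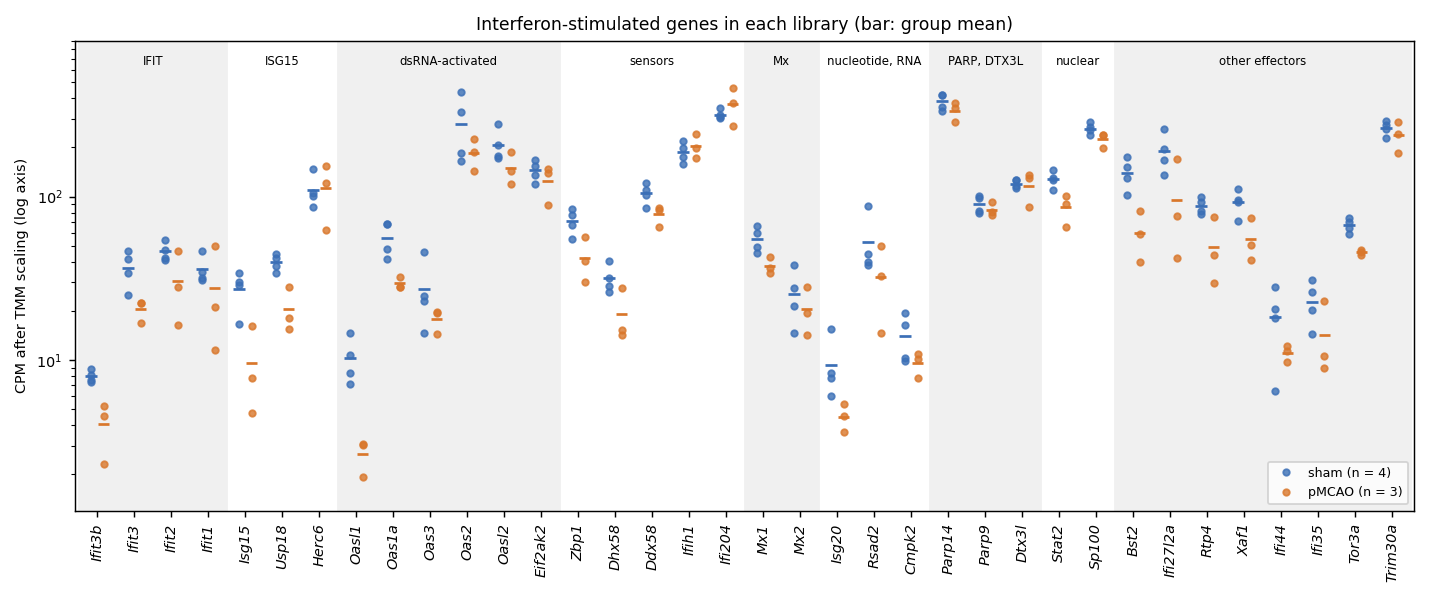
CPM after TMM scaling (log axis) of each of the 36 genes, with 1 point per library (4 sham, 3 pMCAO) and a bar at the group mean, ordered by role. Sham and pMCAO points separate for 12 genes, among them Bst2, Oasl1, Oas1a, Isg15 and Usp18, and mix for the sensors Ifih1 and Ifi204 and the PARP and DTX3L genes.

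**Figure D2:**
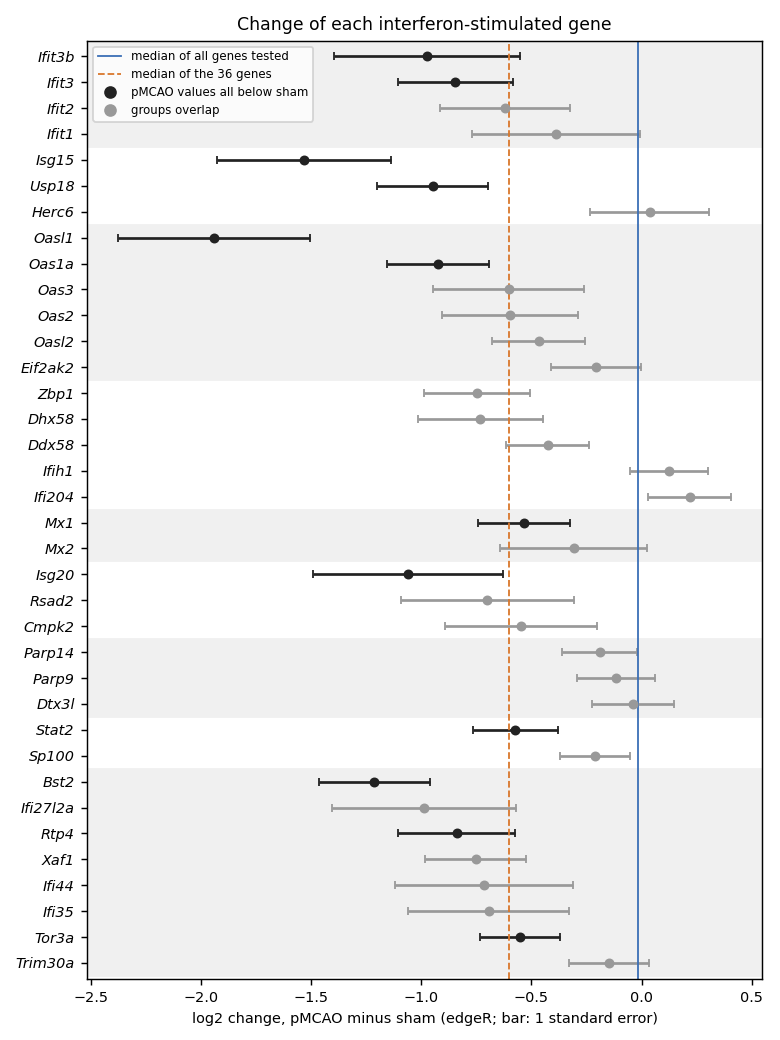
Log2 change (pMCAO minus sham) of each gene from edgeR with 1 standard error, by role, with lines at the median of all 17209 genes (-0.02) and of the 36 genes (-0.60). Black points mark the 12 genes whose pMCAO values all lay below the sham values, and 3 genes (Ifi204, Ifih1 and Herc6) lie above 0.

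Bst2 had the smallest p of the 36 genes. It encodes tetherin, a membrane protein that holds budding virions at the cell surface, and lies on chromosome 8 from 71534255 to 71537456. Its level was 102, 152, 130.2 and 174 CPM in Sham 1 to Sham 4 and 82.1, 58.8 and 39.9 CPM in pMCAO 1 to pMCAO 3. The groups did not overlap, and Sham 1 was the lowest sham library. The log2 change was -1.21 (SE 0.25, adjusted p = 0.0718 by edgeR, not past the threshold). Per kilobase of exon it was the second most abundant of the 36 genes in sham libraries, at 155 CPM per kb, and stood at 66.7 CPM per kb after pMCAO. Ifi27l2a, a small membrane protein of the ISG12 family, was the most abundant, at 409 and 207 CPM per kb. It stood at 136, 167, 196 and 259.5 CPM with sham surgery and at 169, 76.1 and 42.2 CPM after pMCAO. The pMCAO libraries spread widely, pMCAO 1 lay within the sham range, and the log2 change was -0.99 (SE 0.42, adjusted p = 0.348).

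Among the other effectors, Rtp4, a chaperone of G protein-coupled receptors that interferon induces, was at 99.5, 82.1, 78.5 and 93.2 CPM with sham surgery and at 74.9, 29.5 and 44.1 CPM after pMCAO. Its groups did not overlap, though pMCAO 1 came close to Sham 3 (log2 change -0.84, SE 0.27, adjusted p = 0.204). Xaf1, a pro-apoptotic partner of XIAP, was at 71.1, 94.9, 93.1 and 111 CPM and at 73.7, 50.3 and 40.8 CPM. Here pMCAO 1 lay just above Sham 1 (log2 change -0.75, SE 0.23, adjusted p = 0.192). Tor3a, a torsin ATPase, had groups that lay apart, at 69.6, 73.7, 59.5 and 64.7 CPM and at 44.1, 47.0 and 45.6 CPM (log2 change -0.55, SE 0.18, adjusted p = 0.217). Ifi35, a partner of NMI, had a mean of 22.8 ± 7.13 CPM (SD, n = 4) in sham libraries and 14.2 ± 7.61 CPM (SD, n = 3) in pMCAO libraries (log2 change -0.70). Ifi44, which is induced by interferon, stood at 18.3 ± 8.94 and 11.1 ± 1.23 CPM (log2 change -0.72). Trim30a, a TRIM family regulator of macrophage signalling, differed little, at 264 ± 25.6 and 238 ± 50.2 CPM (log2 change -0.15, SE 0.18). Of these 8 effectors 8 had lower means, 3 (Bst2, Rtp4 and Tor3a) had groups that did not overlap, and the median log2 change was -0.73. Over all genes 51.4% had a lower mean and 6.58% had every pMCAO value below every sham value.

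The ISG15 system holds 3 of the genes, of which none passed the test. ISG15 is a ubiquitin-like protein that is attached to other proteins, USP18 removes it and also blocks the IFNAR receptor, and HERC6 is the mouse ligase that attaches it. Isg15 (chromosome 4, 156199424 to 156200818) was at 34.3, 30.0, 16.6 and 28.7 CPM with sham surgery and at 16.1, 7.82 and 4.77 CPM after pMCAO. The groups just failed to overlap, with Sham 3 and pMCAO 1 next to each other (log2 change -1.53, SE 0.39, adjusted p = 0.133). Usp18 was at 44.8, 37.6, 34.1 and 42.4 CPM and at 28.2, 15.6 and 18.1 CPM, again with no overlap (log2 change -0.95, SE 0.25, adjusted p = 0.145). Herc6 was at 110.0 ± 26.9 and 113 ± 46.3 CPM (log2 change 0.04, SE 0.27), and its sign depended on the setting. Whether Herc6 differed from Isg15 in its change was not tested.

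Of the IFIT proteins, IFIT1 binds viral RNA that lacks the methylation of host caps. Ifit3 was at 46.6, 41.7, 24.9 and 34.3 CPM in the sham group and at 22.4, 16.9 and 22.3 CPM in the pMCAO group. Its groups did not overlap (log2 change -0.85, SE 0.26, adjusted p = 0.192). Ifit3b, its near copy, was at 7.99 ± 0.668 and 4.04 ± 1.55 CPM, also without overlap (log2 change -0.97, SE 0.42). The counts of this pair are uncertain: 31.7% of the 100-base stretches of Ifit3 transcripts occur in Ifit3b transcripts, and 27.4% the other way round. Ifit2 was at 46.4 ± 6.10 and 30.3 ± 15.2 CPM (log2 change -0.62, SE 0.30). Ifit1 was at 36 ± 7.23 and 27.6 ± 19.99 CPM (log2 change -0.39, SE 0.38), and pMCAO 1 lay above all sham libraries there, at 49.99 CPM, while pMCAO 2 was at 11.6 CPM.

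Enzymes that double-stranded RNA switches on came next. OAS proteins make 2′-5′ oligoadenylates that activate RNase L, the OASL proteins are their relatives, and Eif2ak2 encodes PKR, the kinase that stops translation. Oasl1 (chromosome 5, 114923240 to 114937915), which represses translation of the IRF7 messenger RNA, was at 10.8, 7.10, 8.37 and 14.7 CPM with sham surgery and at 3.08, 1.93 and 3.03 CPM after pMCAO. Every pMCAO value was below 3.1 CPM and every sham value above 7, and the log2 change of -1.94 (SE 0.44, adjusted p = 0.0956) was the lowest of the 36 genes. In pMCAO 1 that level rests on 36 reads. Oas1a was at 41.4, 47.5, 67.8 and 67.7 CPM and at 28.1, 32.4 and 28.1 CPM (log2 change -0.93, SE 0.23, adjusted p = 0.127), with no overlap and little spread after pMCAO. Its counts are uncertain, since 40.9% of its 100-base stretches also occur in Oas1g. Oas2, the most abundant of the family per kilobase (62.9 CPM per kb in sham libraries), was at 165, 186, 329.7 and 439.6 CPM and at 225, 143 and 187 CPM. Sham 3 and Sham 4 were high and Sham 1 and Sham 2 lay among the pMCAO libraries (log2 change -0.60, SE 0.31, adjusted p = 0.422). Oas3 was at 27.1 ± 13.4 and 17.8 ± 2.92 CPM (log2 change -0.60), Oasl2 at 208 ± 48.3 and 151 ± 35.0 CPM (-0.47) and Eif2ak2 at 145 ± 21.4 and 125 ± 32.1 CPM (-0.21), all with overlap.

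None of the cytosolic sensors passed the test. RIG-I (Ddx58) and MDA5 (Ifih1) detect viral RNA, LGP2 (Dhx58) tunes both, ZBP1 binds left-handed nucleic acid and can start necroptosis, and IFI204 binds DNA. Zbp1 was at 77.0, 67.1, 54.8 and 84.5 CPM with sham surgery and at 56.5, 40.2 and 30.0 CPM after pMCAO, with only Sham 3 and pMCAO 1 crossing (log2 change -0.75, SE 0.24, adjusted p = 0.208). Dhx58 was at 31.7, 26, 28.6 and 40.2 CPM and at 15.2, 27.5 and 14.3 CPM. Here pMCAO 2, the lowest library for most of the other genes, was the one within the sham range (log2 change -0.73, SE 0.29, adjusted p = 0.285). Ddx58 was at 105 ± 15.4 and 77.9 ± 11.2 CPM (log2 change -0.43, SE 0.19). Ifih1 was at 188 ± 26 and 204 ± 34.5 CPM (log2 change 0.12, SE 0.18, and -0.12 and -0.20 with the mitochondrial and pan-macrophage covariates). Ifi204, the most abundant of the sensors per kilobase (89.4 CPM per kb in sham libraries), was at 347, 316, 302 and 308 CPM and at 465, 269 and 377 CPM, so that pMCAO libraries lay on both sides of the sham range (log2 change 0.22, SE 0.19, adjusted p = 0.643). With the stromal and mitochondrial covariates Ifi204 was at -0.18 and -0.32.

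The remaining roles held small groups of genes. Mx1, a dynamin-like GTPase whose allele in C57BL/6 mice is truncated, was at 59.6, 45.3, 48.9 and 65.8 CPM with sham surgery and at 34.3, 42.7 and 36.8 CPM after pMCAO, without overlap (log2 change -0.53, SE 0.21, adjusted p = 0.287). Mx2 was at 25.4 ± 9.95 and 20.6 ± 6.98 CPM (log2 change -0.31). Viperin (Rsad2), which makes a chain-terminating nucleotide from CTP, was at 87.7, 39.7, 44.3 and 38.4 CPM and at 49.99, 14.7 and 32.5 CPM (log2 change -0.70, SE 0.39, adjusted p = 0.458). Sham 1 stood above the other libraries and pMCAO 1 above 3 of the 4 sham libraries. Cmpk2, the nucleotide kinase beside Rsad2 on chromosome 12, was at 14 ± 4.73 and 9.62 ± 1.61 CPM (log2 change -0.55). Isg20, an RNA exonuclease, was at 15.4, 7.74, 6.05 and 8.36 CPM and at 5.38, 3.63 and 4.54 CPM, with no overlap but with Sham 1 far above the other sham libraries (log2 change -1.06, SE 0.43, adjusted p = 0.308).

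Stat2, the ISGF3 subunit, was at 126, 110.3, 130.03 and 145 CPM and at 102, 65.4 and 90.7 CPM (log2 change -0.57, SE 0.19, adjusted p = 0.225), with no overlap. Sp100, a nuclear body protein, was at 237, 254, 267 and 285 CPM and at 239.7, 239 and 197 CPM (log2 change -0.21, SE 0.16, adjusted p = 0.593). The PARP9 and DTX3L complex, which modifies histones and viral proteins, and PARP14 formed the role with the median log2 change closest to 0 (-0.12). Parp14 was at 354, 336, 421 and 422 CPM and at 348, 286 and 374 CPM (log2 change -0.19, SE 0.17, adjusted p = 0.656), Parp9 at 90.05 ± 11 and 83.2 ± 8.10 CPM (-0.12, SE 0.18) and Dtx3l at 120.4 ± 7.0 and 117 ± 26.6 CPM (-0.04, SE 0.19). Parp9 and Dtx3l overlap on opposite strands over 458 exon bases, so part of their reads cannot be assigned without strand, which the sources used here do not give for the counting.

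The 3 pMCAO libraries were not alike. Set against the sham mean, the median of the 36 genes was -0.26 in pMCAO 1, -0.78 in pMCAO 2 and -0.58 in pMCAO 3 on the log2 scale, and between -0.12 and 0.14 in the sham libraries. In pMCAO 2 the level was below the sham mean for 36 of 36 genes and below the lowest sham library for 30. In pMCAO 3 these counts were 32 and 24, and in pMCAO 1 they were 24 and 14. Among the pMCAO libraries, pMCAO 2 was the lowest for 22 genes and pMCAO 1 the highest for 28. The map of deviations shows that the library with the lowest value differed between genes. Ifit1, Ifit2, Rsad2, Rtp4 and Usp18 were lowest in pMCAO 2, while Bst2, Isg15 and Ifi27l2a were lowest in pMCAO 3. Among the sham libraries, Sham 1 was the highest for 16 genes, such as Rsad2, Oas3 and Isg20, and Sham 4 for another 16, such as Oas2, Mx2 and Bst2. Sham 1 also had the highest summed level of 6 B cell markers, at 2195 CPM against 58.5 to 368 CPM in the other sham libraries and 166 to 250.5 CPM in pMCAO libraries. The immunoglobulin gene Igkc alone gave 2017 CPM of it, Cd79b was higher in Sham 2 (56.5 CPM) than in Sham 1 (38.7 CPM), and the part of B cells in the results was not tested. Several changes rest on 1 library. Without Sham 1 the log2 change was -0.22 for Oas3 and -0.34 for Rsad2, and without Sham 4 it was -0.29 for Oas2. For Ifit1 it was -0.02 without pMCAO 2 and -1.14 without pMCAO 1, and for Ifi27l2a it was -1.68 without pMCAO 1 and -0.63 without pMCAO 3.

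**Figure D3:**
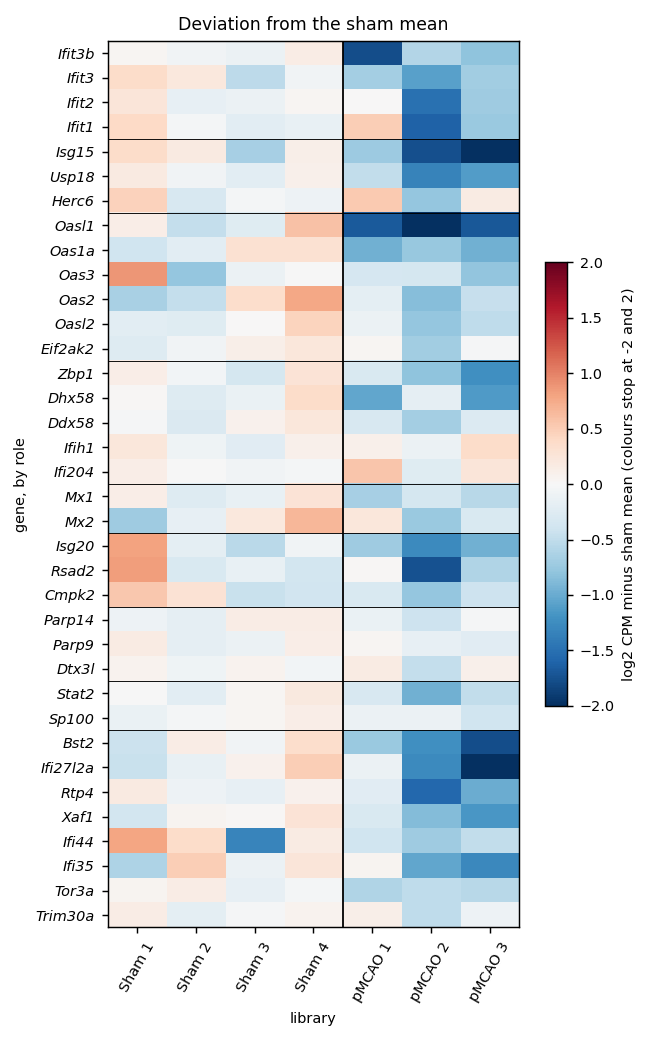
Log2 CPM of each gene in each library minus the mean of the 4 sham libraries, with genes by role and a line between the groups (blue lower, red higher). The column of pMCAO 2 is below the sham mean for 36 of 36 genes, that of pMCAO 3 for 32 and that of pMCAO 1 for 24.

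Of the 11 genes that were lowest in pMCAO 3, 3 have the shortest transcripts of all 36, with exon lengths of 463 bp (Ifi27l2a), 756 bp (Isg15) and 903 bp (Bst2). In that library short transcripts lay lower throughout. Over the 661 genes of at least 5 CPM and under 1000 bp of exon, the median difference from the sham mean was -0.78 in pMCAO 3, against -0.10 in pMCAO 1 and -0.02 in pMCAO 2. Over the 2107 genes of 8000 bp or more it was 0.35 in pMCAO 3. The edgeR log2 change of the short class had a median of -0.25 and that of the long class, which holds Herc6, Ifih1 and Parp14, a median of 0.17. Set against the median of its own length class, chosen after the values were seen, the change was -1.29 for Isg15, -0.97 for Bst2, -0.74 for Ifi27l2a and -1.82 for Oasl1. Over the 36 genes the median was then -0.56, with 35 below the median of their class and Ifi204 above it. The class medians are of the change over all pMCAO libraries, so subtracting them does not remove the larger shift in pMCAO 3. The part of transcript length in the results was not tested.

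Other measures moved with the group. Mitochondrial ribosomal RNA took 2.42% to 5.82% of counts in sham libraries and 8.26% to 12.6% after pMCAO (exact two-sided permutation test on the summed CPM, p = 0.0286, the smallest that 4 against 3 libraries allow, and 0.143 adjusted over 15 marker and quality lists). Of 12 fibroblast markers 11 were listed and 10 had higher means. Their summed level was 109 to 246 CPM with sham surgery and 181 to 568 CPM after pMCAO (exact permutation p = 0.0571, adjusted 0.143). All 10 blood endothelial markers had higher means, with sums of 110.1 to 308 CPM and 321 to 429 CPM (exact permutation p = 0.0571, adjusted 0.143). Of 6 listed large peritoneal macrophage markers 5 had higher means and 1 a lower one. Their sums were 44.0 to 60.3 CPM and 54.4 to 121 CPM (exact permutation p = 0.0571, adjusted 0.143). The 3 listed mesothelium markers summed to 1.32 to 4.36 CPM and 4.27 to 11.3 CPM (exact permutation p = 0.0571, adjusted 0.143). The part of these cells was not tested. Pan-macrophage markers, of which 16 of 16 were listed and 15 had lower means, summed to 13145 to 17702 CPM and 10800.0 to 12685 CPM (exact permutation p = 0.0571, adjusted 0.143). Cx3cr1 and Csf1r were present in every library, and both had lower means after pMCAO. Cx3cr1, the marker of the sort, was at means of 256 and 175 CPM (log2 change -0.55, adjusted p = 0.256 by edgeR) and Csf1r at 2316 and 1813 CPM (-0.35, adjusted p = 0.496). In such bulk samples fewer cells of a type and less RNA per cell cannot be told apart. With the fibroblast and endothelial score as a covariate the median of the 36 genes was -0.61, with mitochondrial ribosomal RNA -0.58 and with the pan-macrophage score -0.50. Mitochondrial ribosomal RNA separated the groups fully and the other scores moved with them, so these fits cannot split group from covariate. Single genes moved more than the median. Oas1a was at -0.20 with mitochondrial ribosomal RNA as the covariate (unadjusted p = 0.67 by edgeR) and Bst2 at -0.86 (unadjusted p = 0.157), while Ifit1 was at -2.10 and Oas2 at 0.39. With the pan-macrophage score Bst2 was at -0.48 (unadjusted p = 0.0797 by edgeR), Ifi27l2a at -0.06 and Oasl1 at -2.09.

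Plasmacytoid dendritic cells and monocytes can also carry high levels of interferon-stimulated transcripts. Of 9 plasmacytoid markers 6 were listed, and their sums overlapped, at 671 to 845 CPM with sham surgery and 692 to 1211 CPM after pMCAO (exact permutation p = 0.343). Of the 6, 4 had higher means after pMCAO (Tcf4, Ccr9, Runx2 and Spib) and 2 lower ones (Siglech and Ly6d). Tcf4, a factor of these cells that others share, was at means of 561 CPM with sham surgery and 749.8 CPM after pMCAO, and Siglech, a surface lectin, at 173 and 133 CPM. The 8 classical monocyte markers summed to 1573 to 2428 CPM and 2352 to 3149 CPM (exact permutation p = 0.0857), with 6 of 8 means higher after pMCAO. F13a1 had the highest means of the 8, at 1040 CPM with sham surgery and 1668 CPM after pMCAO, so it weighs most in these sums. Ccr2, with the next highest means, overlapped between groups, at 476 to 1216 CPM with sham surgery and 534 to 970 CPM after pMCAO. The 2 markers with lower means were Ly6c2 (14.4 and 11.6 CPM) and Plac8 (40.0 and 28.2 CPM). The part of either cell type in the results was not tested. None of the markers of either list was at 0 in any library. The plot of library measures sets 3 library values beside the median of the interferon-stimulated genes. Of the pMCAO libraries, pMCAO 1 had the highest mitochondrial ribosomal RNA share and was the one nearest to sham for the 36 genes. Every pMCAO library had a higher share than every sham library, so this share and the group cannot be told apart, and its part in the results was not tested.

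**Figure D4:**
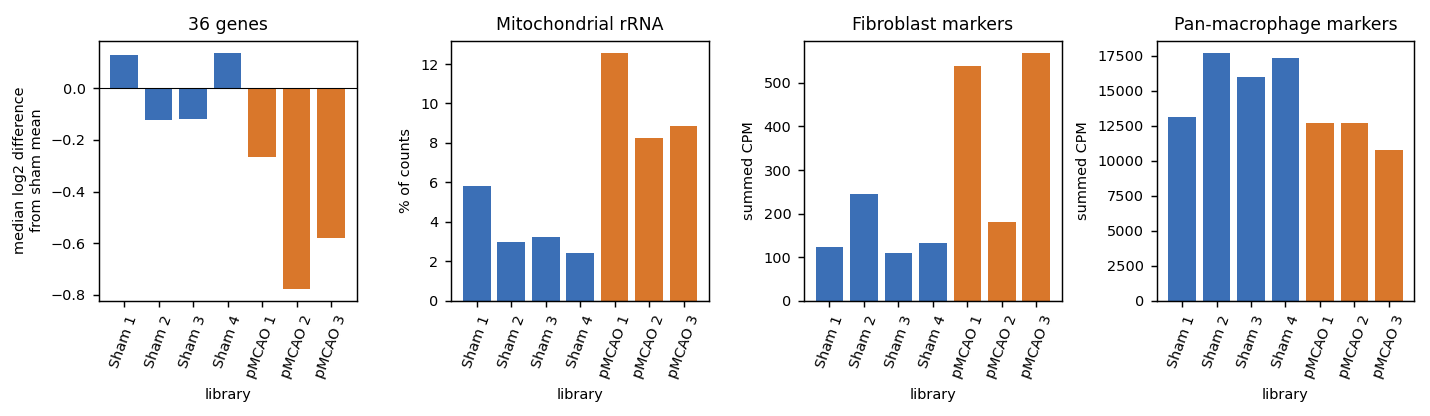
Bars by library (blue sham, orange pMCAO) of the median log2 difference of the 36 genes from the sham mean, the share of counts from mitochondrial ribosomal RNA, and the summed CPM of fibroblast and of pan-macrophage markers. The lowest median is in pMCAO 2 (-0.78), the highest ribosomal share in pMCAO 1 (12.6%) and the highest fibroblast sum in pMCAO 3 (568 CPM).

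Other genes of the pathway were taken from 6 lists, and their difference from the 36 genes was not tested. Of 119 genes in lists of interferons, receptors, signal transducers, inhibitors, adaptors and further interferon-stimulated genes, 92 were listed, of which 0 fell and 0 rose by the edgeR test (0.0291% and 0.0697% of all genes). Means were lower for 72 (51.4% of all genes) and higher for 20, with a median log2 change of -0.21. At an unadjusted p of 0.05, 23 were lower and 2 higher, against 6.47% and 6.97% of all genes. Of 18 type I interferon genes only Ifnk was among the listed genes, at 4.20 ± 3.17 and 4.20 ± 0.251 CPM. The other 17 are not analysed here, since a gene had to exceed 0.5 CPM in 4 or more of 7 libraries to enter the table. Ifnar1, the receptor chain that binds TYK2, was at 338 ± 29.7 and 280.2 ± 38.8 CPM, Tyk2 at 64.2 ± 15.7 and 47.8 ± 12.6 CPM and Ifngr2, a chain of the interferon-gamma receptor, at 135 ± 21.4 and 85.0 ± 18.6 CPM (log2 change -0.66, adjusted p = 0.192 by edgeR).

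Irf7, the factor that amplifies interferon production, was at 78.0, 38.9, 31.3 and 49.9 CPM with sham surgery and at 18.5, 14.8 and 10.8 CPM after pMCAO. Its groups did not overlap, and its log2 change was -1.75 (SE 0.32, adjusted p = 0.0527). Irf5 and Irf8, factors of macrophage identity and activation, had log2 changes of -0.54 and -0.43 (adjusted p = 0.277 each by edgeR). Irf9, the DNA-binding subunit of ISGF3, had a log2 change of -0.49 (adjusted p = 0.348 by edgeR) and overlapped between groups. Tmem173, which encodes STING, was at 100.2 ± 12 and 64.4 ± 5.46 CPM, while the endosomal RNA sensor Tlr7 was at 891 ± 58.3 and 1219 ± 391 CPM and the DNA sensor Tlr9 at 94.6 ± 29.7 and 62.7 ± 11.4 CPM. Of 4 listed inhibitors, the phosphatase gene Ptpn6 had a log2 change of -0.45, Ptpn2 0.13 and the STAT inhibitor Pias1 0.34. Among 61 further interferon-stimulated genes the median log2 change was -0.21, and the smallest p were those of Parp10 (25.1 ± 2.84 and 12.1 ± 1.70 CPM), Sp110 (78.9 ± 8.91 and 51.7 ± 4.34 CPM) and Phf11b (70.8 ± 16.5 and 40.8 ± 11.3 CPM).

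The authors' own comparison gave lower values for fewer of the genes. Of the 36 genes, 25 have a negative and 11 a positive log2 change in the authors' deposited table, with a median of -0.29 against -0.03 for all genes, and 0 of 36 have an FDR under 0.05, which 0.0581% of genes have in the lower direction. Bst2 has a log2 change of -1.47 (FDR 0.146) and Isg15 one of -1.90 (FDR 0.174) in the authors' deposited table. Herc6 is at 0.66 (FDR 0.237) in the authors' deposited table, where the counts gave 0.04. The direction in the authors' deposited table differs from that of the counts for 8 genes, namely Oas2, Oas3, Mx2, Eif2ak2, Parp9, Parp14, Dtx3l and Trim30a. The model behind the authors' deposited table is not given in the sources used here.

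**Figure D5:**
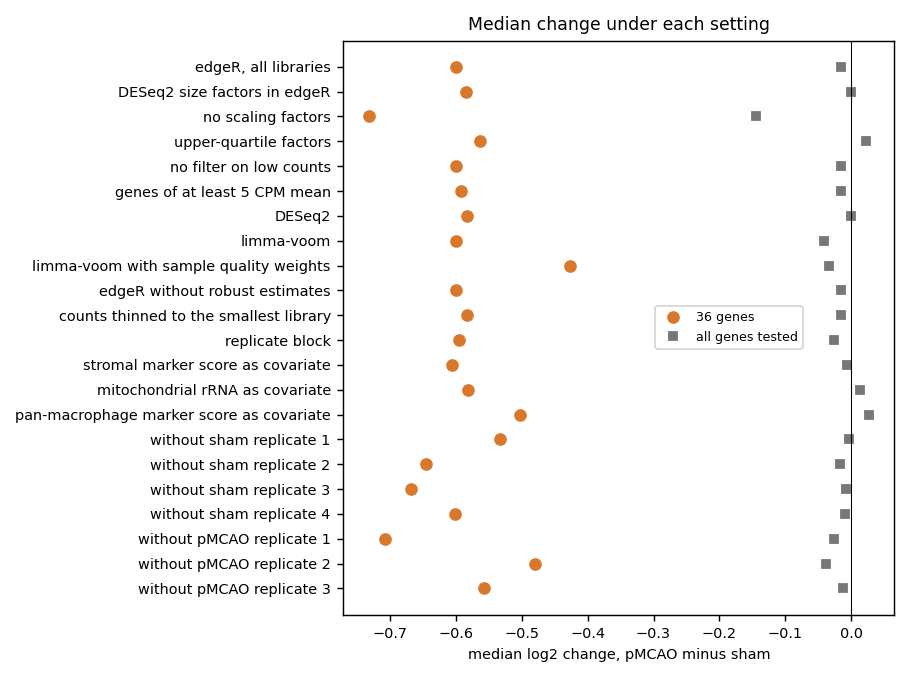
Median log2 change (pMCAO minus sham) of the 36 genes (orange) and of all genes tested (grey) under each setting of the test. The median of the 36 genes lies between -0.73 (no scaling factors, where that of all genes is -0.14) and -0.43 (limma-voom with sample quality weights).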

How the data were processed

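Single-gene read counts of 7 bulk RNA-seq libraries were used. Libraries were built from 2.0 ng of RNA with the Trio kit after cleavage of ribosomal RNA and read as 100 base pairs from both ends, per the labels' protocols, so counts without molecular identifiers are not independent molecules and intervals or floors from them cover counting error only. For the deposited counts the submitters' processing notes name STAR, featureCounts and the build GRCm38 (mm10). Tool versions, strand setting and annotation: not given in the sources used here. The deposited CPM values equal count over library total to within 0.0005. The log2 fold changes, p-values and FDR in the deposited table are the authors' own, and the submitters' processing notes name limma. All 17209 genes lie above 0.5 CPM in at least 4 libraries.

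Counts as deposited were tested with the edgeR 4.0.16 quasi-likelihood F test (R 4.3.3, robust estimates, TMM factors, group as the only term, two-sided, Benjamini-Hochberg over all genes, threshold 0.05). The biological coefficient of variation was 43.6%. Printed CPM carry the TMM factors and are given as mean ± SD, and a log2 change is pMCAO minus sham, with SE equal to its size over the square root of F. DESeq2 1.42.0, limma 3.58.1, other scalings and filters, thinning, a replicate block, 3 covariates and leaving out each library were alternatives. Gene models came from GENCODE M21, which holds 99.4% of identifiers on the same chromosome. Named genes were all members; per-library values are for the member of each role with the smallest p or the highest CPM per kb and 6 more with the smallest p; 3 genes per pathway list with the smallest p were named, and Irf9 was added after its values were seen. The members, lists and settings were chosen with earlier results of these data known.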

Additional observations from a re-analysis of the deposited data

Results flagged for a closer look

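Rsad2 in Sham 1 stood apart from the other sham libraries, at 87.7 CPM where the nearest of the other 3 was at 44.3 CPM and the lowest at 38.4 CPM. The gap was 0.881 of the whole range, above the 95% critical value of Dixon for 4 samples. It was the only one of the 36 genes with such a gap in the sham libraries, and chance marks about 1 in 20 groups.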

How the results depend on the processing

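Over all genes, the number called was 17 with edgeR, 17 with DESeq2 size factors, without a filter or without robust estimates, 29 without scaling factors, 34 with upper-quartile factors, 76 over genes of at least 5 CPM, 35 after thinning, 476 with DESeq2, 39 with limma-voom, 869 with sample quality weights and 98 at an adjusted p of 0.10. It was 0 with the stromal, mitochondrial or pan-macrophage covariate (1097, 836 and 1090 genes at an unadjusted p of 0.05 by edgeR) and 0 to 100 when single libraries were left out (0 without pMCAO 1, with 1987 at an unadjusted p of 0.05 by edgeR, 7 without pMCAO 3, 9 without Sham 4, 47 without Sham 1 or Sham 2 and 100 without pMCAO 2). Of the 36 genes, 1 passed over genes of at least 5 CPM, 5 with DESeq2, 1 with limma-voom, 4 with sample quality weights and 2 (Bst2 and Oasl1) at an adjusted p of 0.10, and 0 to 1 when single libraries were left out. Their median moved to -0.43 with sample quality weights and ranged from -0.71 to -0.48 without single libraries (-0.48 without pMCAO 2). The share of promoters with the response element core was 54.2% when a further A was required. With the replicate number as a block, 21 genes and 0 of the 36 passed and the median was -0.60. The deviations of same-numbered libraries correlated at -0.07, -0.01 and 0.0889, the last (Sham 3 with pMCAO 3) being the highest of all pairs. Sham 1 with pMCAO 2 came next at 0.0856. Values this small cannot decide whether the numbers mark pairs. No label names pairs, so the numbers were not taken as pairs. In all, 25 of the 36 genes were lower under each of the 21 alternatives run on single genes. Among those alternatives, the fit without a filter only repeats the main fit, since the filter kept all 17209 genes. None of the sign changes below had a call on either side, and the cause was not tested. Herc6 turned to -0.10 without scaling factors, -0.0597 with limma-voom, -0.0613 with the replicate block, -0.39, -1.13 and -0.40 with the stromal, mitochondrial and pan-macrophage covariates, and ranged from -0.26 to 0.33 without single libraries (lower without Sham 2, Sham 4, pMCAO 1 or pMCAO 3). Ifih1 turned to -0.00575 without scaling factors and -0.12 and -0.20 with the mitochondrial and pan-macrophage covariates, and ranged from -0.0131 (without pMCAO 3) to 0.23 without single libraries. Ifi204 turned to -0.18 and -0.32 with the stromal and mitochondrial covariates. Dtx3l turned to 0.00604 with upper-quartile factors and 0.0897 with quality weights, and ranged from -0.16 to 0.14 (without pMCAO 2). Trim30a turned to 0.0127 with quality weights and ranged from -0.30 to 0.00706 (without pMCAO 2), and Ifit1 turned to 0.0918 with quality weights. With the mitochondrial covariate Oas2 was at 0.39 and Mx2 at 0.52, with the stromal covariate Oas3 was at 0.00242, and with the pan-macrophage covariate Mx2 was at 0.37, Sp100 at 0.0193 and Ifi35 at 0.27. Depth limits the low genes most: 3 counts are 0.236 CPM in pMCAO 1.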
